A study of Mus musculus with 12 samples.

Results

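The transcripts described here encode the subunits of the receptors for GABA and glutamate, the main inhibitory and excitatory transmitters of the brain. They are the 47 genes, of 38283 in the deposited table, whose symbols follow the naming of GABA-A and GABA-B receptor subunits, of the AMPA, kainate, NMDA and delta subunits of the ionotropic glutamate receptors, and of the metabotropic glutamate receptors. The set holds 19 GABA-A, 2 GABA-B, 4 AMPA, 5 kainate, 7 NMDA, 2 delta and 8 metabotropic members, and no symbol was repeated.

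The study introduced the R299Q mutation into Prkag2, which encodes the γ2 subunit of the energy sensor AMPK, and sequenced RNA from the arcuate nucleus (ARC) of the hypothalamus. Of the 12 libraries, 5 were wild type (WT) and 7 homozygous for R299Q γ2 (Homo), all from male C57BL/6 mice aged 8 weeks with free access to food. The mutation is carried in the germline and is not restricted to any cell type of the ARC, and no heterozygous library was analysed here; FPKM values cannot show a point mutation, so the genotype labels were not checked against the data. The ARC was cut from brain cryosections by laser, so each library holds the neurons, glia and vessels of the captured area, and the RNA was amplified before library preparation. The question put to the data was which subunits the ARC transcribes, in what proportions, and whether these differed between Homo and WT.

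GABA-A receptors are chloride channels assembled mostly from α, β and a further class of subunit (γ, δ, ε or θ), and the α and γ subunits set much of their pharmacology and synaptic location. AMPA, kainate and NMDA receptors are glutamate-gated cation channels built from related subunits, while GABA-B and metabotropic glutamate receptors signal through G proteins. In the ARC, neurons expressing AGRP and NPY, which promote feeding, and neurons expressing POMC, which reduce it, both receive GABA and glutamate input. Receptor subunits are named below by their gene symbols, and γ2 always means the AMPK subunit.

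The sequences at the start of 4 GABA-A genes are shown because they set side by side 3 neighbouring genes that were all well expressed and 1 gene that was listed at 0 in every library. Gabre, Gabra3 and Gabrq lie next to each other on the X chromosome and encode the ε, α3 and θ subunits, whereas Gabra6 on chromosome 11 encodes α6, a subunit known from cerebellar granule cells. Each window runs from 250 bases before to 50 bases after a RefSeq transcription start (GRCm38.p6), is written 5′ to 3′ on the strand of the gene, and has each CpG dinucleotide, the site of DNA methylation in mammals, in capitals (CG reads the same on both strands).
Gabre, chrX:72274672-72274971, minus strand: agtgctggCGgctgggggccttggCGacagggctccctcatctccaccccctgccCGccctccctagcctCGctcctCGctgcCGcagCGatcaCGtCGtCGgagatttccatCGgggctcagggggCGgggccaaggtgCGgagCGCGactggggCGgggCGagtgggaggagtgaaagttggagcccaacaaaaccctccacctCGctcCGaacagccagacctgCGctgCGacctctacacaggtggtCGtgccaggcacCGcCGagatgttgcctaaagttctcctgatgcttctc
Gabra3, chrX:72656870-72657169, minus strand: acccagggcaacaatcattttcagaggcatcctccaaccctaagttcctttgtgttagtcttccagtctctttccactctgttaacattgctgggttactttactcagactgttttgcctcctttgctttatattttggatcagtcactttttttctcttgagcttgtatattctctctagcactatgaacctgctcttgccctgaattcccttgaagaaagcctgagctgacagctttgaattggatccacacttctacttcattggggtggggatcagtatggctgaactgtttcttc
Gabrq, chrX:72824928-72825227, plus strand: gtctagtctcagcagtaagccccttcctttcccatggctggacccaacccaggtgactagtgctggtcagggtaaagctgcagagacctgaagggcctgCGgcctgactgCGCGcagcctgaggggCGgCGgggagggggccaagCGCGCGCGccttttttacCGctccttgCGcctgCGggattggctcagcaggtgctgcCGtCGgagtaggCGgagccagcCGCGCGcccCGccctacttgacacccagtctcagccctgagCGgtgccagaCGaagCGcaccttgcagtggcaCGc
Gabra6, chr11:42321023-42321322, minus strand: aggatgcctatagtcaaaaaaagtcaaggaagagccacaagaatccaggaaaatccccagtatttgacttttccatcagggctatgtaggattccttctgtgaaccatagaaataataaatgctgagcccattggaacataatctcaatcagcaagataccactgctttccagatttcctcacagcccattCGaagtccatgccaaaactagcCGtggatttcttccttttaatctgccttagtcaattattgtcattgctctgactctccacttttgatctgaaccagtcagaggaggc
The window of Gabre held 24 CpG and that of Gabrq 23, while the window of Gabra3 between them held 0 and that of Gabra6 held 2. Over the 27025 genes with a window, the median was 8 CpG at the richest start of each gene, 36.5% of genes had at most 4 and 45.8% had at least 10.

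Values are FPKM (fragments per kilobase of transcript, scaled to the sequencing depth), which adjust levels for transcript length. The RNA was amplified, and whether amplification altered levels of some genes relative to others was not tested. Levels, shares and ratios between genes below are therefore those of the FPKM values. The libraries fell into 2 sets by the number of genes above 0. WT 1, WT 2 and Homo 1 to Homo 5 had 15742 to 16467, and WT 3 to WT 5, Homo 6 and Homo 7 had 18141 to 18635. Genotype and set were thus partly but not fully confounded, and for some genes results are also given within each set. The sample titles of Homo 6 and Homo 7 are worded differently from those of Homo 1 to Homo 5, whereas the WT titles share the same wording. What this difference in wording stands for is not stated. Read totals were not given in the sources used here, so depth is unknown. The FPKM of a library summed to between 1.33e+07 and 2.12e+07, of which 10 genes took 95.9% to 98.1%, and rank correlations between libraries ran from 0.762 to 0.854 (Spearman's rho across genes). All 10 marker genes of the ARC, including Agrp, Npy and Pomc, averaged at least 1 FPKM, but their summed level was 1356 to 4702 FPKM in WT and 3494 to 5256 in Homo, with a median of 4656 in the set with fewer and 3263 in the set with more genes above 0. WT 3 was the lowest library at 1356, followed by WT 4 at 2415 and WT 5 at 3263, so these 3 WT libraries lay below every Homo library. Of the neighbouring ventromedial nucleus, 3 of 5 markers averaged at least 1 FPKM, the list summing to 8.09 to 19.3 FPKM, most of it Slc17a6, while Fezf1 and Nr5a1 stayed below 1 FPKM in every library. Of cortex and hippocampus, Prox1 ran from 5.52 to 20.3 FPKM and Slc17a7, Tbr1 and Neurod6 stayed below 1. Of the cerebellum, 1 of 4 markers averaged at least 1 FPKM, Pcp2, which ran from 0.556 to 5.54. The summed level of 9 neuronal markers was 769 to 1143 FPKM in WT and 788 to 1182 in Homo. That of 6 microglial markers was 28.0 to 44.8 in WT and 41.7 to 71.8 in Homo. That of 5 pituitary hormone genes had a median of 0 in the libraries with fewer and 56.4 in those with more genes above 0. The latter set was not uniform: Gh was 61.5 in WT 3, 64.5 in WT 5 and 54.5 in Homo 7, but 0.139 in WT 4 and 0.137 in Homo 6. In the set with fewer, Cga reached 9.37 in Homo 4. The part of all these markers in the results below was not tested. In such bulk samples fewer cells of a type and less RNA per cell cannot be told apart.

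The ARC contained transcripts of 44 of the 47 members in at least 1 library, and 36 had a mean of at least 1 FPKM and entered the test of genotype. Those not tested were 6 GABA-A members (Gabrd, Gabra6, Gabrp and the ρ subunits Gabrr1, Gabrr2 and Gabrr3), 2 NMDA members (Grin2c and Grin3b) and 3 metabotropic members (Grm2, Grm4 and Grm6). The mean levels over the 12 libraries ran from 0 for Gabra6, Gabrp and Gabrr3 to 164 FPKM for Gabbr1. Summed over the members of a class, the mean level was 318 FPKM for GABA-A, 211 for GABA-B, 104 for AMPA, 81.0 for NMDA and 54.6 for kainate members. The GABA-A sum was 1.34 ± 0.120 times (SD, n = 12) that of the AMPA, kainate and NMDA members, delta members not being counted, and this ratio was 1.33 ± 0.0881 in WT and 1.35 ± 0.145 in Homo.

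**Figure D1:**
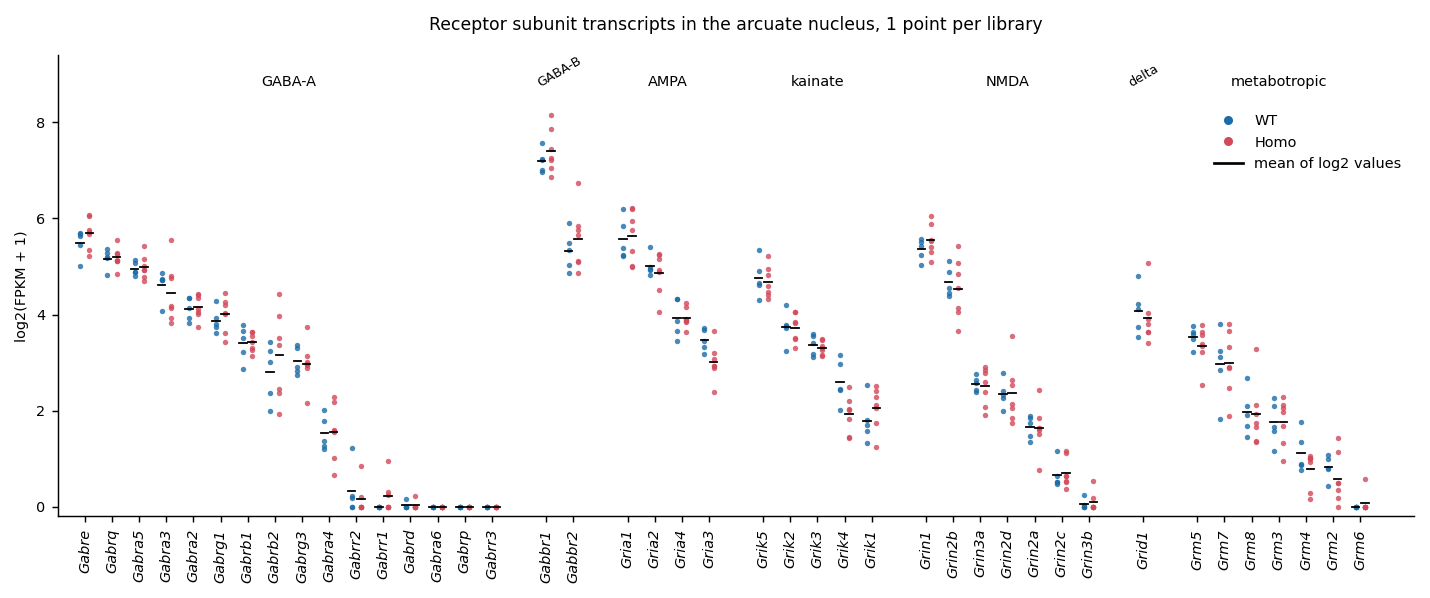
Level of 42 of the 47 members on the log2(FPKM + 1) scale, grouped by receptor class and ordered by mean, with 1 point per library (5 WT, 7 Homo) and a bar at the mean of the log2 values. Gabbr1 stands highest, the 11 members not tested average under 1 FPKM, and the points of the genotypes overlap for every tested member shown.

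None of the 36 members passed the test of Homo against WT after adjustment over all 14017 genes tested (limma, Benjamini-Hochberg). The smallest adjusted p among them was 0.856, and across all genes 1 was called, 0.00713%. At an unadjusted limma p under 0.05, 1 member was called, the kainate subunit Grik4, lower in Homo; that is 2.78% of the members tested, against a background of 5.55% of all genes in either direction and of 2.5% lower in Homo. No member was called higher in Homo, against 3.05% of all genes. Without WT 3, the library lowest in ARC markers, 0 members were called after adjustment and 2 at the unadjusted threshold. The share of all genes at the unadjusted threshold was not computed without WT 3. No member had genotypes that did not overlap, against 0.221% of all genes. The mean was higher in Homo for 18 members and lower for 18, where 49.3% of all genes were higher, and the median log2 fold change was -0.0048 for the members and -0.0062 for all genes. The precision of the differences is given by 95% intervals, which were not adjusted for the number of genes tested. For 34 of 36 members the interval of the log2 fold change lay within −1 and 1, against 58.7% of all genes. That is within a 2-fold change on the log2(FPKM + 1) scale. The exceptions were Grik4 and the GABA-A subunit Gabrb2 (-0.56 to 1.24). The interval extended 0.35 to 0.90 to either side of the estimate, with a median of 0.49. Estimates smaller than this could not be told from 0 even without adjustment. To pass the adjusted test a difference had to be larger still. Grik4, at -0.68 with an interval that excluded 0, had a limma adjusted p of 0.856. The residual SD of the members had a median of 0.38 on the log2 scale, against 0.52 for all genes. Labels number the samples within each genotype without stating that each came from a separate animal, and the p-values measure the spread between these samples.

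**Figure D2:**
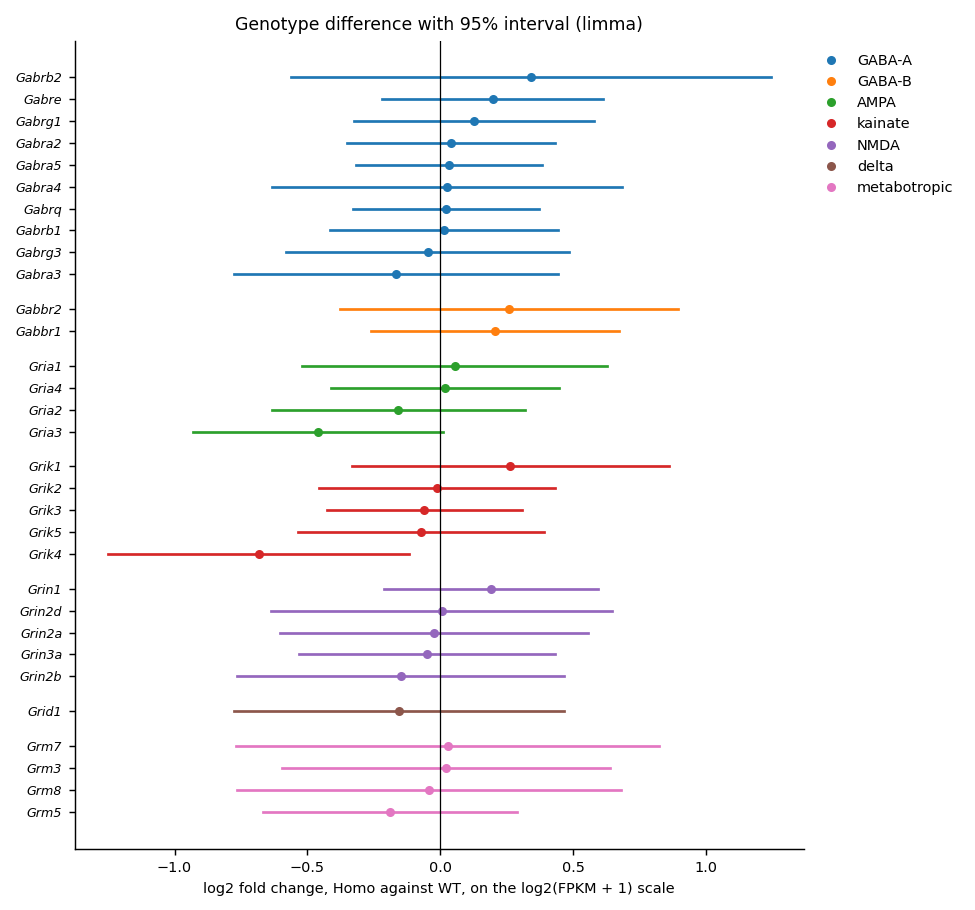
Log2 fold change of Homo against WT on the log2(FPKM + 1) scale for 31 of the 36 tested members, with 95% intervals from limma, coloured by receptor class. The interval of Grik4 (-1.25 to -0.12) lies below 0 and those of the other 30 members shown include 0.

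Among the GABA-A α subunits, which carry the GABA site together with β and determine benzodiazepine sensitivity, Gabra5 led, with a mean of 30.7 FPKM over the 12 libraries. Gabra3 averaged 23.4, Gabra2 16.9 and Gabra4 2.06 FPKM, while Gabra6 was listed at 0. Gabra5 was above Gabra3 in 11 of 12 libraries, Gabra3 above Gabra2 in 9, and Gabra2 above Gabra4 in 12. The ratio of Gabra3 to Gabra5 was 0.799 ± 0.148 in WT and 0.777 ± 0.510 in Homo (SD, n = 5 and 7). It was above 1 in a single library, Homo 3, where it was 1.86, with 46.1 FPKM for Gabra3 and 24.9 for Gabra5. Of the β subunits, Gabrb1 averaged 9.87 and Gabrb2 8.24 FPKM. Gabrb1 exceeded Gabrb2 in only 8 of 12 libraries, so the levels of these genes did not separate beyond their spread, and Gabrb2 was the more variable, with 2.82 to 20.6 FPKM across the libraries against 6.30 to 12.8 for Gabrb1.

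Among the subunits that join α and β, the ε transcript Gabre had the highest mean, 48.9 FPKM. The θ transcript Gabrq averaged 35.6, Gabrg1 14.8 and Gabrg3 7.26 FPKM. Each of these 4 exceeded the next in 12 of 12 libraries. Gabre (ENSMUSG00000031340, chrX:72255999-72274803, minus strand, GRCm38) had 49.1, 50.96, 31.3, 42.6 and 50.02 FPKM in WT 1 to WT 5 and 36.3 to 66.3 with a median of 51.4 in Homo. WT 3 was the lowest library and Homo 4 and Homo 2 the highest, with overlap between, and of the GABA-A members it had the smallest p for genotype (log2 fold change 0.20, SE 0.19, exact permutation p = 0.295, limma adjusted p = 0.923). Gabrq (ENSMUSG00000031344, chrX:72825178-72842602, plus strand) had 37.8, 35.5, 27.3, 35.3 and 40.1 FPKM in WT and 27.9 to 46.1 with a median of 34.4 in Homo. WT 3, the library with the lowest sum of ARC markers, and Homo 3 were again the lowest and Homo 4 the highest, and the genotypes overlapped (log2 fold change 0.021, SE 0.16, limma adjusted p = 0.993). Without WT 3 the log2 fold change was 0.076 for Gabre and -0.064 for Gabrq. The ratio of Gabrq to Gabre stayed between 0.526 and 0.872 in the 12 libraries and was 0.794 ± 0.0664 in WT and 0.706 ± 0.101 in Homo.

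Gabrd, whose product gives extrasynaptic receptors for tonic inhibition in other brain regions, was listed at 0 in 10 libraries, with 0.110 FPKM in WT 4 and 0.162 in Homo 6. The π subunit Gabrp was at 0 throughout. The ρ subunits, which form receptors in the retina, took at most 0.361% of the GABA-A sum in any library. Low values in these files carry no read counts, so a listing at 0 does not show that the transcript was absent.

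Many GABA-A genes lie in clusters. The X-linked trio of Gabre, Gabra3 and Gabrq, whose genes are separated by 158 and 168 kb, held 34.03% of the GABA-A FPKM, and Gabra2, Gabrg1, Gabrb1 and Gabra4 on chromosome 5 held 13.7%. The X share was 32.8 ± 3.31% in WT and 34.9 ± 4.43% in Homo, and the chromosome 5 share 13.3 ± 1.18% and 13.95 ± 0.721%, each overlapping between genotypes. Neighbours within a cluster differed in level, Gabra2 averaging 8.20 times Gabra4 on chromosome 5.

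Both GABA-B subunits were abundant. Gabbr1, which binds GABA, had the highest mean of all members, and Gabbr2, which couples the dimer to G proteins and brings it to the cell surface, averaged 46.8 FPKM. Gabbr1 (ENSMUSG00000024462, chr17:37045966-37075067, plus strand) had 148, 125, 149, 128 and 188 FPKM in WT and 116 to 282 with a median of 151 in Homo. Homo 2 and Homo 1 were above every WT library, but the other 5 Homo libraries lay within or below the WT range, giving a log2 fold change of 0.20 (SE 0.22, exact permutation p = 0.389, limma adjusted p = 0.923). Gabbr2 had 39.4, 59.03, 28.1, 31.5 and 44.2 FPKM in WT and 28.3 to 106 with a median of 49.2 in Homo, with Homo 1 alone far above the rest (log2 fold change 0.26, SE 0.30, limma adjusted p = 0.927). Gabbr1 exceeded Gabbr2 in every library, and the ratio of Gabbr2 to Gabbr1 was 0.282 ± 0.111 in WT and 0.295 ± 0.110 in Homo.

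Of the AMPA subunits, Gria1 took 47.6% of the summed FPKM, Gria2 29.4%, Gria4 14.3% and Gria3 8.64%. Gria2 is the subunit whose edited form makes AMPA receptors impermeable to calcium, and its share was 30.5 ± 2.74% in WT and 28.6 ± 7.33% in Homo. Gria1 exceeded Gria2 in 11 of 12 libraries, the exception being Homo 4. Gria1 had 36.98, 40.8, 56.5, 36.2 and 72.5 FPKM in WT and 30.7 to 73.1 with a median of 53.1 in Homo, the genotypes spanning nearly the same range (log2 fold change 0.055, SE 0.27, limma adjusted p = 0.990). Gria2 had 27.2, 29.3, 30.1, 30.95 and 41.4 FPKM in WT and 15.5 to 37.3 with a median of 29.5 in Homo, where Homo 3 and Homo 2 were the only libraries below all of WT (log2 fold change -0.16, SE 0.22, limma adjusted p = 0.944).

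Gria3 (ENSMUSG00000001986, chrX:41400854-41678601, plus strand) was the AMPA member with the smallest p for genotype. It had 12.1, 11.7, 8.10, 9.03 and 9.95 FPKM in WT 1 to WT 5 and 4.22 to 11.6 with a median of 6.62 in Homo, or 10.2 ± 1.72 and 7.30 ± 2.26 (SD, n = 5 and 7). Homo 1, Homo 2, Homo 4, Homo 5 and Homo 7 lay below every WT library, Homo 6 just above the lowest WT value, and Homo 3 among the highest. The log2 fold change was -0.46 (SE 0.22, 95% interval -0.93 to 0.01, limma adjusted p = 0.899). Unadjusted, limma gave p = 0.0546, an exact two-sided permutation of genotype over all 12 libraries p = 0.0379, and one restricted to within the library sets p = 0.0190. The difference was -0.70 in the set with fewer and -0.28 in the set with more genes above 0. By the exact permutation test, 2 of the 36 members had an unadjusted p under 0.05, Grik4 and Gria3, against 5.35% of all genes tested.

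Kainate receptors assemble from Grik1, Grik2 and Grik3, which form channels on their own, and from Grik4 and Grik5, which bind kainate with high affinity and need a partner from the first group. Grik5 was the leading kainate transcript with 47.2% of the summed FPKM, followed by Grik2 with 23.3%, Grik3 with 16.98%, Grik4 with 7.04% and Grik1 with 5.55%. Grik5 had 28.9, 39.6, 18.7, 24.1 and 23.5 FPKM in WT and 19.2 to 36.2 with a median of 23.1 in Homo, and Grik2 had 8.51, 12.7, 12.2, 12.6 and 17.2 and 8.90 to 15.5 with a median of 13.2. Both overlapped between genotypes, with log2 fold changes of -0.073 (SE 0.22) and -0.014 (SE 0.21).

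Grik4 (ENSMUSG00000032017, chr9:42518135-42944493, minus strand) was lower in Homo at an unadjusted p only. It had 6.83, 7.94, 4.40, 3.02 and 4.50 FPKM in WT 1 to WT 5 and 1.69 to 4.59 with a median of 3.06 in Homo, or 5.34 ± 1.999 and 2.91 ± 1.03 (SD, n = 5 and 7). WT 1 and WT 2 were the highest libraries, the other 3 WT libraries lay between 3.02 and 4.50 FPKM, and 3 of 7 Homo libraries were below all of WT. The log2 fold change was -0.68 (SE 0.26, 95% interval -1.25 to -0.12, limma adjusted p = 0.856). Its unadjusted p was 0.0213 in limma, 0.0253 by exact permutation over all libraries and 0.0143 by exact permutation within the library sets. The difference was -1.15 among the libraries with fewer and -0.37 among those with more genes above 0, and these values did not differ beyond their error (limma interaction, adjusted p = 0.886). Its share of the kainate sum was 9.23 ± 2.42% in WT and 5.47 ± 1.84% in Homo, with overlap. Without WT 1 or without WT 2 the unadjusted p was no longer under 0.05, the log2 fold change being -0.59 and -0.55.

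**Figure D3:**
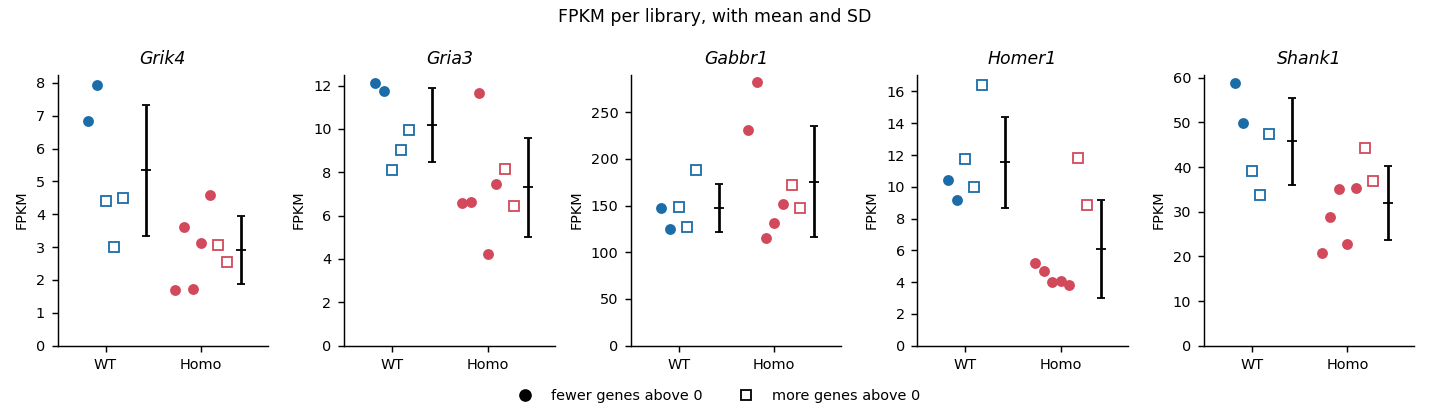
FPKM per library for Grik4, Gria3 and Gabbr1 and for the receptor scaffolds Homer1 and Shank1, with the mean and SD of each genotype (5 WT, 7 Homo). Filled circles are libraries with 15742 to 16467 genes above 0 and open squares those with 18141 to 18635, and in every panel some Homo points lie within the WT range.

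NMDA receptors combine the obligatory Grin1 with a Grin2 subunit that sets their kinetics. Grin1 had 44.5, 46.7, 31.8, 36.9 and 42.2 FPKM in WT and 33.3 to 65.4 with a median of 45.4 in Homo, Homo 2 and Homo 5 being above every WT library (log2 fold change 0.19, SE 0.19, limma adjusted p = 0.923). Of its exonic bases, 13.5% are shared with the antisense gene Grin1os, and whether the quantification used strand is not given in the sources used here, so reads of the pair cannot be told apart there. Grin2b, known from early development, took 75.8% of the summed Grin2 FPKM, against 14.1% for Grin2d, 7.78% for Grin2a and 2.27% for Grin2c. Grin2b had 28.7, 20.97, 22.5, 19.9 and 33.8 FPKM in WT and 11.5 to 41.99 with a median of 22.6 in Homo, with Homo 1 lowest and Homo 4 highest of all libraries (log2 fold change -0.15, SE 0.29, limma adjusted p = 0.971). It exceeded Grin2d in 12 of 12 libraries, and Grin2d exceeded Grin2a in 12 of 12. The ratio of Grin1 to the summed Grin2 transcripts was 1.29 ± 0.293 in WT and 1.62 ± 0.647 in Homo. Grin3a, a modulatory subunit that binds glycine, averaged 4.87 FPKM and Grin3b 0.0679, though 32.1% of the exonic bases of Grin3b overlap Tmem259 on the other strand.

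**Figure D4:**
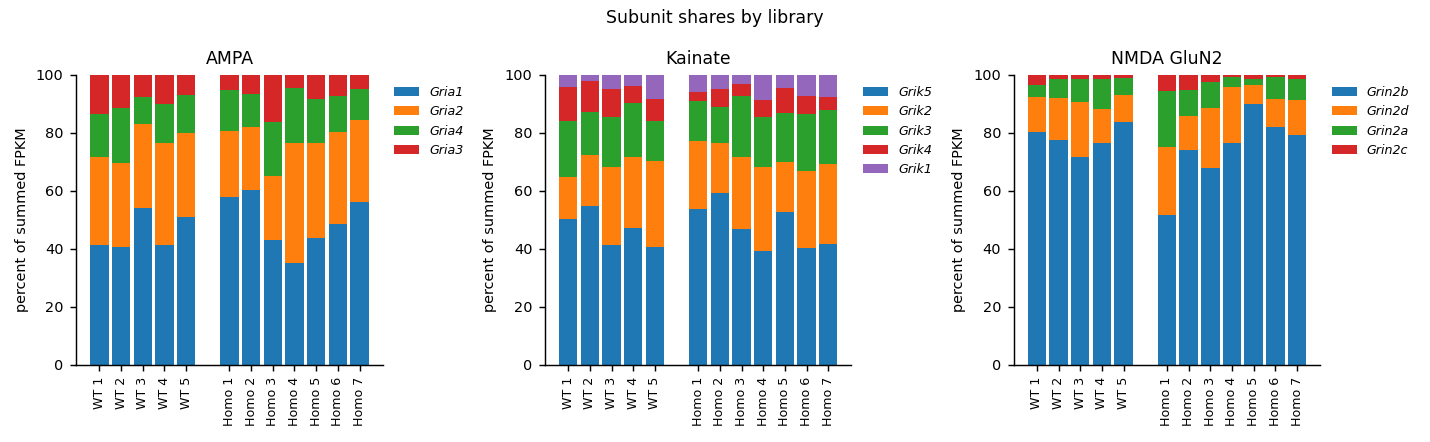
Stacked bars of the percent of summed FPKM taken by each AMPA, kainate and Grin2 subunit within its group, 1 bar per library (5 WT, 7 Homo). Gria1, Grik5 and Grin2b have the highest mean share of their groups in the 12 libraries, and every share overlaps between WT and Homo.

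The delta receptors bind glutamate poorly and act as synaptic organizers through cerebellins. Grid1 had 26.8, 17.7, 10.6, 12.4 and 16.4 FPKM in WT and 9.61 to 32.8 with a median of 12.9 in Homo, with Homo 4 and WT 1 apart above the rest (log2 fold change -0.16, SE 0.29, limma adjusted p = 0.968).

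Of the metabotropic receptors, group I couples to phospholipase C, while groups II and III lower cyclic AMP and group III sits mostly on presynaptic terminals. Grm5 of group I had 12.6, 10.3, 8.30, 11.1 and 11.4 FPKM in WT and 4.76 to 12.7 with a median of 9.45 in Homo, with Homo 5 alone well below the others (log2 fold change -0.19, SE 0.22, limma adjusted p = 0.929). Grm7 of group III had 2.53, 8.46, 6.21, 7.70 and 12.95 FPKM in WT and 2.71 to 12.9 with a median of 6.56 in Homo, each genotype spanning over 4-fold between its lowest and highest library (log2 fold change 0.028, SE 0.37, limma adjusted p = 0.995). Grm8 and Grm3 averaged 3.16 and 2.54 FPKM, Grm4 and Grm2 0.973 and 0.670, and Grm6, the receptor of retinal bipolar cells, was above 0 only in Homo 2. Grm5 exceeded Grm7 in 9 of 12 libraries and Grm7 exceeded Grm8 in 11, whereas Grm8 exceeded Grm3 in 6 and did not separate from it.

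The 16 other tested members shown in the plots but not given library by library had log2 fold changes between -0.17 (Gabra3) and 0.34 (Gabrb2), and their adjusted p was at least 0.923 (limma). Between the library sets, 2 of the 36 tested members differed at an unadjusted limma p under 0.05 with genotype in the model. The share of all genes at that threshold was not computed. Gabrg3 was among them, being higher by 0.53 on the log2 scale where more genes were above 0 (limma adjusted p = 0.543). No member showed an interaction of genotype and set, the smallest limma adjusted p being 0.879. The log2 fold change differed in sign between the 2 sets for 17 of the 36 members. The share of all genes that did so was not computed.

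Of 64 genes that traffic, anchor or accompany these receptors, 61 were tested. None was called after adjustment (smallest limma adjusted p 0.763). At an unadjusted limma p under 0.05, 3 were called, all lower in Homo. That is 4.92%, against a background of 2.5% lower in Homo and 5.55% in either direction. All 3 were among the 18 genes listed as scaffolds and enzymes of the postsynaptic density, 16.7% of that group. The group also holds Adarb1, an enzyme of RNA editing and not a protein of the postsynaptic density. The group was singled out after its values were seen. Outside that group, the delta receptor ligand Cbln2 had an exact permutation p of 0.00884, smaller than those of the 3 genes (given below). The log2 fold change of Cbln2 was -0.58 (SE 0.27, limma adjusted p = 0.899), at a mean of 1.40 FPKM. Of the other ligands listed, Cbln1 went the other way, at 0.57 (SE 0.27, exact permutation p = 0.0644, limma adjusted p = 0.899). Its mean was 5.87 FPKM. Cbln4 was at -0.033 (SE 0.25). The median log2 fold change of the 61 was -0.019, with 29 higher and 32 lower in Homo.

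Homer1, which links metabotropic receptors to Shank proteins, had 10.4, 9.18, 11.7, 9.999 and 16.4 FPKM in WT and 3.79 to 11.8 with a median of 4.73 in Homo. Homo 1 to Homo 5 (3.79 to 5.19 FPKM) lay below all WT libraries, whereas Homo 6, with 11.8 FPKM, was within the WT range and Homo 7, with 8.83, just below it. The log2 fold change was -0.90 (SE 0.27, exact permutation p = 0.0152, limma adjusted p = 0.763), and it was -1.02 in the set with fewer and -0.26 in the set with more genes above 0. Shank1, a scaffold below NMDA and metabotropic receptors, had 58.8, 49.8, 39.2, 33.8 and 47.4 FPKM in WT and 20.7 to 44.3 with a median of 35.1 in Homo, and its relative Shank3 had 5.06, 5.86, 5.57, 3.11 and 6.32 and 1.41 to 6.08 with a median of 2.77. Their log2 fold changes were -0.52 (SE 0.21, exact permutation p = 0.0303, limma adjusted p = 0.887) and -0.62 (SE 0.27, exact permutation p = 0.0354, limma adjusted p = 0.899), with -0.93 and -0.89 in the set with fewer and 0.025 and -0.10 in the set with more genes above 0. All 3 differences were larger in size among the libraries with fewer genes above 0. After adjustment, no interaction of genotype and set passed the test (limma adjusted p of at least 0.876). Unadjusted, the limma interaction p was 0.0306 for Shank1, 0.0888 for Homer1 and 0.174 for Shank3.

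The most abundant gene in each partner group overlapped between genotypes. Dlg4, the scaffold PSD-95, averaged 359 FPKM, above every receptor subunit, Gabarapl1 of the GABA-A trafficking genes 204 and Nsf, which recycles AMPA receptors, 99.8. Kcnj3, a potassium channel opened by GABA-B receptors, averaged 13.9 FPKM, the kainate auxiliary subunit Neto1 4.77, the delta receptor ligand Cbln4 12.9 and the glycine receptor subunit Glrb 33.1. The largest of their log2 fold changes in size was -0.53 for Kcnj3 (SE 0.37, limma adjusted p = 0.915).

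The CpG content shown above for 4 genes was counted for all 32 members with a RefSeq window. Of the 23 tested members with a window, 21 had at least 10 CpG at their richest start, and the median was 18. Of the 11 members not tested, 9 had a window, of which 6 had at most 4 (Gabra6, Gabrr2, Gabrr3, Grin3b, Gabrp and Grm6), Gabrr1 had 9, and Grin2c and Grm2 had 22 each, with a median of 4. Gabra3 and Gabrg1, with 0 and 3 CpG, were the 2 tested members with few CpG, at mean levels of 23.4 and 14.8 FPKM. CpG number did not order the expressed members: Grik3 with 50 and Grik4 with 42 averaged 9.15 and 3.92 FPKM, and Gabbr1 with 18 averaged 164. The shares given above for the 27025 genes with a window do not separate tested from untested genes. Whether the contrast between tested and untested members also holds for genes in general was therefore not tested.

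**Figure D5:**
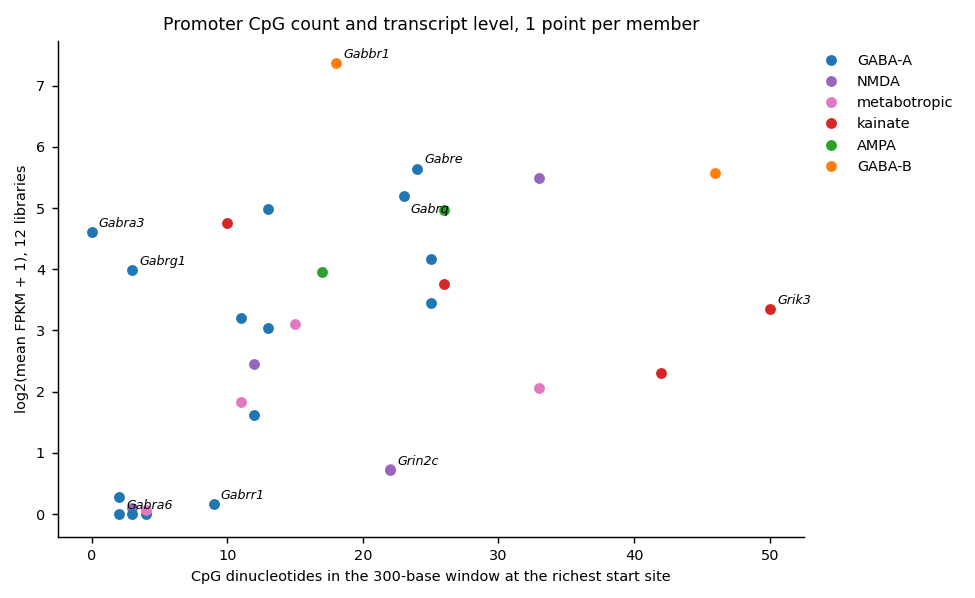
Number of CpG dinucleotides in the RefSeq window of 250 bases before to 50 after the start (the richest start of each gene) against log2(mean FPKM + 1) over 12 libraries, for the 32 members with a window, coloured by class. Members near the floor lie mostly at 9 CpG or fewer, with Grin2c and Grm2 together at 22, and Gabra3 and Gabrg1 are the only tested members at 4 or fewer.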

How the data were processed

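RNA from the laser-captured ARC was amplified (NuGEN RNAseq v2) and sequenced. The deposited table holds FPKM per gene and library, made by the authors, whose submitters' processing notes name TopHat2 2.0.8, Cufflinks 2.2.1 and GRCm38; options and read totals are not given in the sources used here. Amplification of little RNA can add spread at low values. Columns were matched to the 5 WT and 7 Homo samples by genotype and number, 2 Homo columns carrying an extra letter; 0 columns of values were left unmapped.

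The 14017 genes averaging 1 FPKM or more were tested on log2(FPKM + 1) with limma 3.58.1 (R 4.3.3; trend and robust variances, Benjamini-Hochberg over all genes); fold changes on this scale understate changes of low genes. The model was tested on simulated data. Exact permutation tests were two-sided. Shares, ratios and marker sums are descriptions with no test. Coordinates are from GENCODE M21, promoter windows from RefSeq GRCm38.p6 (32 of 47 members matched; Python 3.11.15, pandas 2.3.3). Values per library were given for the 2 highest members described in each class and the tested member with the smallest p. They were also given for members with an unadjusted limma p under 0.05. Of the partner genes, those with such a p and the highest of each group were named. Cbln2 was added for its exact permutation p, Cbln1 because it went the other way, and Adarb1 to describe its list. The members, gene lists and library sets were chosen with earlier results of these data known, and the shares by gene cluster and the ratios of Gabra3 to Gabra5 and of Gabrq to Gabre were added after seeing the data. Some members are not reported here by name, with the shares and sums that need them; counts over the members include them. Alternatives tried were other filters, a pseudocount of 0.1, other scalings, variance models and weights, each library set, the set as a covariate, a replicate block and each library left out.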

Additional observations from a re-analysis of the deposited data

Results flagged for a closer look

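Of 112 groups of values looked at (31 members, 3 partner genes and 22 shares and ratios, in each genotype), 11 had 1 library apart from the others by Dixon's criterion, which flags about 1 in 20 groups by chance; shares of one sum are not independent of each other. Among levels, Gabra3 was 15.9 FPKM in WT 3 against 25.4 to 27.9 in the other WT libraries, Grid1 was 32.8 in Homo 4 against 9.61 to 15.5 in the other Homo libraries, and Grm8 was 8.80 in Homo 1 against 1.54 to 3.33. The ratio of Gabra3 to Gabra5 was 1.86 in Homo 3 (other Homo libraries 0.444 to 0.981), and the ρ subunits took 0.361% of the GABA-A sum in WT 5 (other WT libraries 0 to 0.0560%). Among glutamate receptors, Gria2 took 35.3% of AMPA in WT 4 (28.7% to 30.3%), Gria3 16.3% in Homo 3 (4.70% to 8.29%), Grin2a 19.6% of Grin2 in Homo 1 (1.95% to 9.16%) and Grin2c 3.46% in WT 1 (1.36% to 1.65%). The ratio of Gabbr2 to Gabbr1 was 0.473 in WT 2 (0.189 to 0.267), and that of Grin1 to summed Grin2 was 2.93 in Homo 2 (0.840 to 1.72). The cause of these departures was not tested.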

How the results depend on the processing

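No member passed an adjusted p of 0.05 in any of the 11 other settings or with any 1 library left out. The 1 member with an unadjusted p under 0.05 became 0 with a mean of at least 5 FPKM required (Grik4, at 3.92, is then not tested), 0 in the set with more genes above 0 and 0 with the replicate block, and 0 to 2 with a library left out (0 without WT 1 or WT 2, 2 without WT 3 or Homo 3). The median of the members was −0.042 to 0.057 over the settings and −0.042 to 0.058 over left-out libraries. Partner genes at that p numbered 5 with quantile normalization and 6 with the block. They numbered 6 in the set with fewer genes above 0, 1 in the set with more, and 2 to 4 with a library left out. The share of all genes at that p was computed in the main fit only. These counts of members and partner genes in other settings therefore have no background beside them. Genes called over all 14017 numbered 6 in the set with fewer genes above 0, 19 in the set with more, 2 with the block, and 1 to 3 with a library left out (3 without WT 2, 2 without Homo 4). The difference in Grik4 share (−3.75 percentage points) was −5.85 in the set with fewer genes above 0, and that of the chromosome 5 cluster share (0.61) was −0.35 in the set with more. Of the 22 shares and ratios, the difference turned direction for 4 in the set with fewer, 8 in the set with more, 1 when taken from summed FPKM, and 11 with some library left out. Among them, in the set with more, the X cluster share (2.16) became −0.85 and the Grin2b share (−3.43) 3.31. The cause of these changes was not tested.

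Directions turned for some small log2 fold changes: Grm7 (0.028) to −0.11 with array weights, −0.15 in the set with more genes above 0 and −0.0179 with the block; Grik2 (−0.014) to 0.094 with the set as covariate, 0.12 in the set with fewer and 0.057 in the set with more; Gria1 to −0.086 with the block; Gabrq (0.021) to −0.0071 with quantile normalization and −0.041 in the set with fewer. In the set with more genes above 0, where the median of all genes moved to 0.13, Gria2 became 0.078 and Grin2b 0.013. With a library left out, Gria1 ran from −0.042 to 0.21, Gabrq from −0.064 to 0.077, Grid1 from −0.35 to 0.023, Grik5 from −0.19 to 0.073, Grik2 from −0.14 to 0.098 and Grm7 from −0.26 to 0.24. Grik4 and Gria3 stayed negative in every setting that could fit them, from −1.15 to −0.37 and from −0.70 to −0.28, with limma adjusted p never under 0.645 and 0.745. Deviations of same-numbered WT and Homo libraries correlated at −0.054 to 0.029 across genes. No WT library correlated best with the Homo library of its own number. WT 3 to WT 5 and Homo 3 to Homo 5 fell in different library sets. This check therefore cannot decide whether shared replicate numbers pair the samples. Depth is unknown, so members under 1 FPKM cannot be ranked.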
